A study of Mus musculus with 12 samples.

Results

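ADAM17 and ADAM10 are the 2 closest relatives in the ADAM family of membrane proteases, and 6 genes around them were followed here: *Adam17*, *Adam10*, *Rhbdf1*, *Rhbdf2*, *Frmd8* and *Furin*. They were chosen by name, as the target of a silencing shRNA, its nearest relative and the proteins that mature ADAM17. Each had 1 row in the table, and all 6 of 43271 listed genes were among the 15649 that had enough counts to be tested. Poly(A) RNA was sequenced from MC38CEA, a mouse colon adenocarcinoma line that carries human carcinoembryonic antigen, in 12 libraries, 3 in each of 4 groups. Cells in all 4 groups were transduced with a pLKO lentiviral vector and selected with puromycin. The control groups received a control shRNA and the A17.2 groups received A17.2, an shRNA against *Adam17* that the labels call SL2. Each kind of cell was either left unstimulated or stimulated for 6 h with human recombinant IL1β and mouse recombinant IFNγ, both at 10 ng/ml. The cells were selected populations and not clones. The submitters name SHC016 as the control shRNA, a vector they describe as toxic to cells and prone to loss of its cassette, whereas the methods of the study name SHC002.

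ADAM17 and ADAM10 cut the extracellular parts of membrane proteins and release them, a process called shedding. ADAM17 is the main sheddase of TNF, its receptors and several EGF receptor ligands, whereas ADAM10 cuts Notch receptors and cadherins. Both are made as inactive proenzymes, and proprotein convertases such as furin remove the prodomain in the secretory pathway. ADAM17 leaves the endoplasmic reticulum bound to iRhom1 or iRhom2, catalytically inactive relatives of the rhomboid proteases that *Rhbdf1* and *Rhbdf2* encode, and FRMD8 holds the complex of iRhom and ADAM17 at the cell surface. ADAM10 depends instead on tetraspanins of the C8 subgroup. Transcript levels say nothing of the amount or maturation of these proteins, which were not measured in these libraries.

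The A17.2 target lay in the coding sequence of *Adam17*. It covered chr12:21361682-21361702 of GRCm38, on the minus strand, within exon 2 of 19 of the transcript ENSMUST00000064536.12, and it was present in 6 of the 10 annotated *Adam17* transcripts. The transcript around the site is shown because it marks what the shRNA pairs with, with the 21 target bases in capitals and 20 bases on each side. The windows under it are the ones with the fewest mismatches found in the annotated transcripts of *Adam10*, *Furin*, *Rhbdf2* and *Frmd8*, with each mismatch in capitals.
Adam17: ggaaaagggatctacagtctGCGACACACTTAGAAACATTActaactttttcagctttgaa
Adam10: gGgacaAacttaACaacaACa
Furin: gcCTcaAacttagaGaTGttT
Rhbdf2: TcTTcaTCcttagTGGcatta
Frmd8: gcCacaGaAAtGgaaacCAtC
The closest window differed from the target at 6 of 21 bases in *Adam10*, 7 in *Furin* and 8 in *Rhbdf2* and *Frmd8*. The 7 letters AAACATT, the site that pairs with the seed of the guide strand, were in 2 of 4 annotated *Adam10* transcripts and in none of the annotated transcripts of *Rhbdf1*, *Rhbdf2*, *Frmd8* and *Furin*. Each window is the best of all positions in its gene, and neither the mismatches nor the 7 letters were counted over other genes. These matches describe letters and not binding, and do not show that any of these genes is an unusually close match.

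The members lay on 5 chromosomes of GRCm38. *Adam17* spanned bases 21323509 to 21373632 of chromosome 12, *Adam10* bases 70678997 to 70780229 of chromosome 9 and *Furin* bases 80388585 to 80405436 of chromosome 7. *Rhbdf1* (32209585 to 32222300) and *Rhbdf2* (116598165 to 116627019) were both on chromosome 11, and *Frmd8* was on chromosome 19 (5849702 to 5875274). *Adam10* was on the plus strand and the other 5 on the minus strand. Exons of *Adam17* shared 311 bases with *Iah1*, those of *Frmd8* shared 388 bases with *Frmd8os* and those of *Furin* shared 118 bases with *Gm44851*, each on the opposite strand. The strand setting of the counting is not given in the sources used here, so reads of these stretches cannot be assigned to 1 gene.

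The libraries held 16592831 to 35861103 counts. Libraries with the number 1 stood apart from the rest of their group: the chi-square per degree of freedom between replicates was 78.9 to 230 where replicate 1 was one of the pair and 20.2 to 35.3 between replicates 2 and 3. The raw file of replicate 1 of the stimulated control cells is noted as corrupted by the submitters, and its counts are in the table. Libraries that shared a number deviated from their group means together, so a further fit took the number as a block. It is given where it changed a call and for some calls lost with 1 library left out. Results are also given without replicate 1. The main p-values, and those with 1 library left out, do not use this pairing. The labels call the replicates biological and do not state that they were separate cultures, and the p-values here rest on the spread among these libraries alone. The labelled cell type was not borne out by its defining markers. All 10 colon epithelial markers examined, *Epcam*, *Cdh1*, *Krt8*, *Krt18*, *Krt19*, *Krt20*, *Cdx1*, *Cdx2*, *Vil1* and *Lgals4*, were under 1 CPM (counts per 1000000) in every library, with *Epcam* at 0 to 0.0422 CPM and *Lgals4* the highest at 0.253 to 0.976 CPM. Among 6 fibroblast genes, *Col3a1* was at 363 to 961, *Col1a2* at 5.68 to 465, *Pdgfra* at 17.1 to 59.6, *Dcn* at 5.02 to 56.4, *Col1a1* at 0.929 to 22.6 and *Thy1* at 0 to 0.0844 CPM. Of the macrophage genes, *Cd14* was at 14.3 to 46.2, *Cd68* at 1.44 to 3.86, *Itgam* at 1.27 to 4.7, *Lyz2* at 0.173 to 1.07 and *Csf1r* at 0 to 0.181 CPM. *Ptprc*, also on that list, marks leukocytes and was at 0 to 0.0989 CPM. The 3 T cell genes together were at 0 to 0.0708 CPM and the 3 endothelial genes together at 0.141 to 0.52 CPM.

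**Figure D1:**
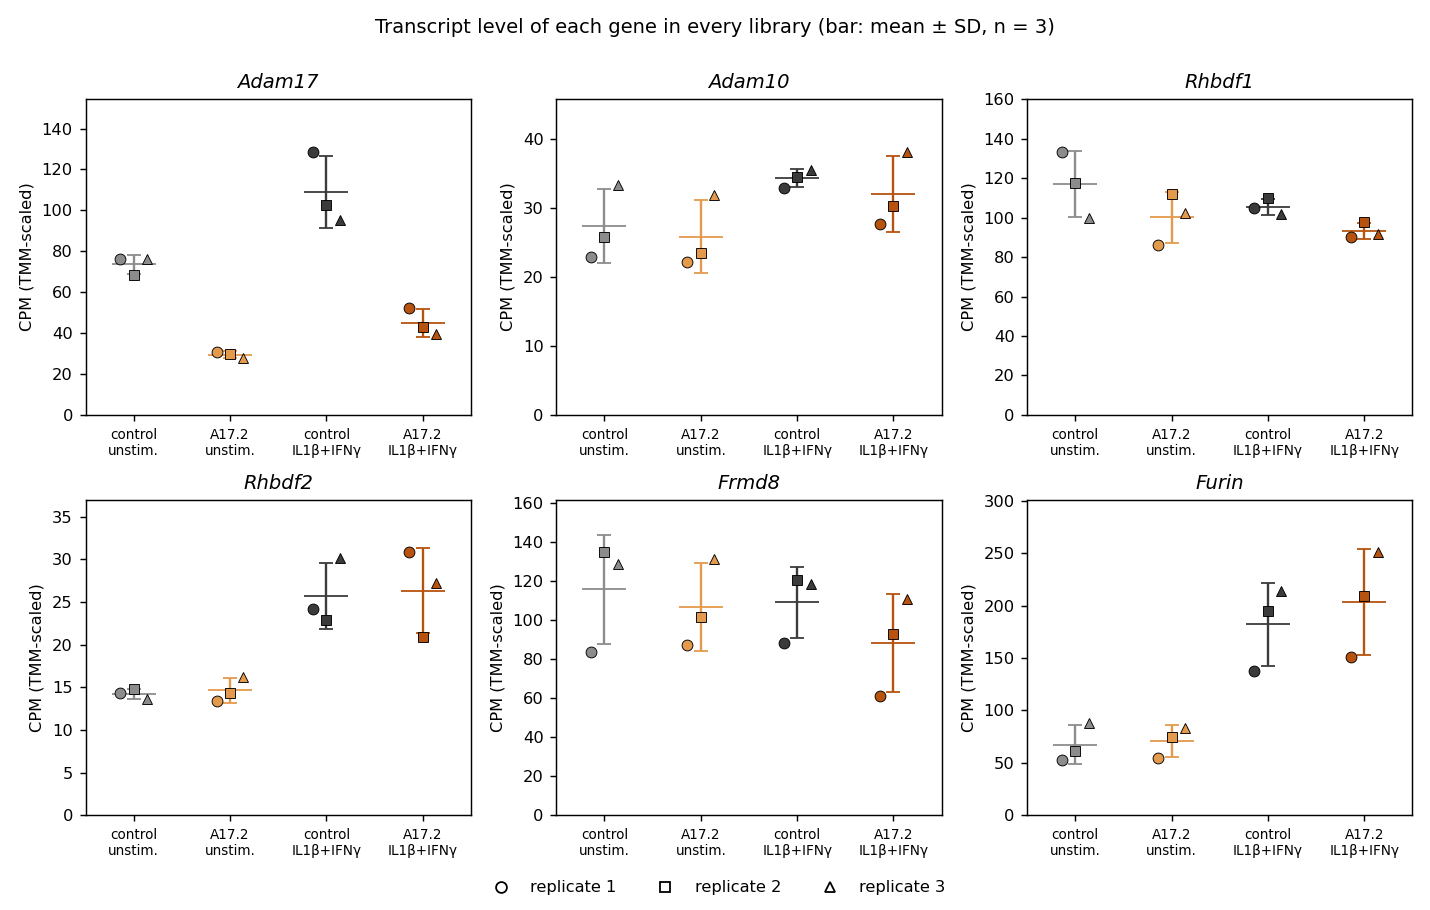
Transcript level of each of the 6 genes in every library, as TMM-scaled CPM on linear axes that start at 0, by group (control or A17.2, unstimulated or stimulated with IL1β and IFNγ). Points are libraries, with a symbol for each replicate number, and the horizontal line with its bar is the mean ± SD (n = 3). *Adam17* was lowest in unstimulated A17.2 cells (27.7 to 30.8 CPM) and highest in stimulated control cells (95.5 to 129 CPM).

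*Adam17*, the target, was lower in A17.2 cells, and this was so with and without cytokines. Its level, in CPM scaled by TMM normalization, was 76.1, 68.4 and 76.4 in unstimulated control cells (replicates 1 to 3) and 30.8, 29.9 and 27.7 in unstimulated A17.2 cells. With cytokines it was 129, 103 and 95.5 CPM in control cells and 52.3, 42.9 and 39.5 CPM in A17.2 cells. In both conditions every A17.2 library lay below every control library. A17.2 cells kept 40.0% of the control level without cytokines (95% interval 31.8 to 50.3%) and 41.2% with cytokines (32.8 to 51.8%). The log2 fold changes were −1.32 (SE 0.151) and −1.28 (SE 0.151), with adjusted p of 0.000643 and 0.00102 in edgeR's quasi-likelihood test with Benjamini-Hochberg adjustment.

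The remaining share of *Adam17* varied little between pairs of libraries. Within pairs of the same number it was 36.3 to 43.7% without cytokines and 40.7 to 41.8% with cytokines. Relative to the geometric mean of *Eef2*, a translation elongation factor, and *Polr2b*, a subunit of RNA polymerase II, both used as reference genes in the qPCR of the study, the ratio of A17.2 to control was 0.367 to 0.384 without and 0.406 to 0.461 with cytokines. *Eef2* itself was at 2580 to 5740 CPM over the 12 libraries, lower in replicate 1 than in the others of each group, and differed between A17.2 and control by a log2 fold change of 0.21 without (adjusted p = 0.866) and 0.01 with cytokines (adjusted p = 0.993, edgeR). *Polr2b* differed by −0.04 and −0.08 (adjusted p = 0.957 and 0.876, edgeR). Leaving out each library in turn gave log2 fold changes of −1.35 to −1.28 for *Adam17* without and −1.40 to −1.14 with cytokines, all called, and without replicate 1 of every group they were −1.36 and −1.27.

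*Adam17* was 1 of many genes that differed. A17.2 and control cells differed in 6.43% of the tested genes without cytokines and in 6.85% with cytokines, and among the 6 members only *Adam17* passed the test in either condition. By p-value *Adam17* ranked 51 of 15649 genes without and 44 with cytokines, and by log2 fold change it ranked 394 and 289 from the lowest. In a selected population, fewer cells with the transcript and less transcript per cell cannot be told apart. Fibroblast and macrophage genes are given beside this comparison because some of them differed too. The summed level of the 6 fibroblast genes was 702 to 871 CPM in control and 550 to 1000 CPM in A17.2 cells without cytokines, and 712 to 762 against 751 to 1100 CPM with cytokines. Of the macrophage list, 6 of 7 genes were in the table under the names used, with sums of 33.0 to 51.4 against 26.6 to 28.5 CPM and, with cytokines, 23.8 to 34.7 against 18.1 to 26.3 CPM. These sums join genes with differences of opposite sign. *Col1a1*, a chain of type I collagen, was higher in A17.2 cells, at 1.61, 1.37 and 0.937 CPM in control and 1.97, 14.1 and 20.2 CPM in A17.2 cells without cytokines (log2 3.19, SE 0.807, adjusted p = 0.0379, edgeR) and at 1.85, 1.57 and 1.17 against 3.68, 21.2 and 23.7 CPM with cytokines (log2 3.40, SE 0.816, adjusted p = 0.0309, edgeR). *Col1a2*, the other chain, had means of 325 and 59.4 CPM without cytokines (log2 −2.45, SE 0.886) and 182 and 43.4 CPM with cytokines (log2 −2.07, SE 0.875), calls made only with the replicate block (adjusted p = 0.00802 and 0.0177, against 0.144 and 0.2 without it, edgeR). *Col3a1* was higher in A17.2 cells by log2 0.77 without and 0.61 with cytokines, and *Dcn* by 1.13 with cytokines. These calls too were made only with the block (adjusted p = 0.000255, 0.00113 and 0.00415, against 0.0946, 0.171 and 0.242 without it, edgeR). *Dcn* without cytokines (log2 0.11) and *Pdgfra* (log2 0.04 without and 0.17 with cytokines) were called in neither fit. *Cd14*, the lipopolysaccharide coreceptor, was lower in unstimulated A17.2 cells, at 17.9, 20.5 and 22.4 CPM against 30.4, 46.4 and 29.9 CPM (log2 −0.81, SE 0.194, adjusted p = 0.0294, edgeR), and with cytokines it was called only with the block (log2 −0.61, adjusted p = 0.00514, against 0.0801 without it, edgeR). The macrophage genes *Lyz2* and *Itgam* were not called there (log2 0.35 and 0.19). The calls of *Col1a1* were lost without any 1 of 8 libraries without cytokines (adjusted p up to 0.134) and any 1 of 5 with cytokines (up to 0.121), and that of *Cd14* without unstimulated control replicate 2 or any unstimulated A17.2 library (up to 0.137). The part of other cells in the *Adam17* difference was not tested.

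*Iah1*, which overlaps *Adam17* on the other strand and encodes an esterase, did not show a difference of that size. It was at 70.6, 58.8 and 59.4 CPM in unstimulated control and 61.1, 54.6 and 54.3 CPM in unstimulated A17.2 cells, a log2 fold change of −0.15 (95% interval −0.42 to 0.11, adjusted p = 0.599, edgeR). With cytokines the log2 fold change was −0.38 (−0.64 to −0.11, adjusted p = 0.0931, and 0.00512 with the replicate block).

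*Adam10*, the closest relative of *Adam17* and the sheddase of Notch, was 22.9, 25.8 and 33.3 CPM in unstimulated control cells and 22.1, 23.5 and 31.9 CPM in unstimulated A17.2 cells. With cytokines it was 32.9, 34.5 and 35.5 CPM in control and 27.6, 30.3 and 38.1 CPM in A17.2 cells. The groups overlapped in both conditions. A17.2 cells had 94.5% of the control level without cytokines (95% interval 70.7 to 126%, adjusted p = 0.901) and 93.3% with cytokines (69.8 to 125%, adjusted p = 0.848, edgeR). A17.2 libraries were lower in 3 of 3 pairs of the same number without and in 2 of 3 with cytokines, at 0.839 to 1.07 of the control level in the latter. With the replicate block the log2 fold changes were −0.08 and −0.12 (adjusted p = 0.564 and 0.391). The intervals reach down to 70.7 and 69.8% of control, and do not show that the levels were equal.

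Neither of the 2 iRhom genes was called between A17.2 and control cells, which does not show that the levels were equal. *Rhbdf1*, which encodes iRhom1, was 133, 118 and 100.1 CPM in unstimulated control and 86.0, 112 and 102 CPM in unstimulated A17.2 cells, and with cytokines 105, 110 and 102 against 90.1, 97.6 and 91.8 CPM. The A17.2 libraries lay below all control libraries with cytokines and overlapped them without. The differences were within the error of the fit, with 85.5% of the control level (69.2 to 106%, adjusted p = 0.453) without and 88.3% (71.4 to 109%, adjusted p = 0.536, edgeR) with cytokines. *Rhbdf2*, which encodes iRhom2, was 14.4, 14.8 and 13.6 CPM in unstimulated control and 13.4, 14.3 and 16.2 CPM in unstimulated A17.2 cells. With cytokines it was 24.2, 22.8 and 30.1 against 30.8, 20.9 and 27.3 CPM. The libraries of the 2 kinds of cell overlapped in both conditions, at 103% (79.2 to 134%) and 102% (79.0 to 133%) of control, with adjusted p of 0.951 and 0.95 in edgeR.

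*Frmd8* and *Furin* varied more between replicates than the iRhom genes did. *Frmd8* was 83.9, 135 and 129 CPM in unstimulated control and 87.5, 102 and 131 CPM in unstimulated A17.2 cells, a ratio of 92.2% (62.7 to 136%, adjusted p = 0.891). With cytokines it was 88.4, 121 and 119 CPM in control and 61.2, 93.0 and 111 CPM in A17.2 cells, a ratio of 81.0% (55.0 to 119%, adjusted p = 0.572, edgeR). Within pairs of the same number the A17.2 library was lower in 3 of 3, at 0.693, 0.77 and 0.938 of control. With the replicate block this was a log2 fold change of −0.33 and passed the test (adjusted p = 0.0208, edgeR), in a fit where 37% of all tested genes passed, against 33.4% without cytokines. *Furin*, the proprotein convertase, was 53.0, 61.1 and 88.0 CPM in unstimulated control and 54.6, 74.3 and 83.7 CPM in unstimulated A17.2 cells, at 105% of control (71.1 to 156%, adjusted p = 0.94). With cytokines A17.2 cells had 112% (75.6 to 165%, adjusted p = 0.811, edgeR). Apart from *Frmd8* with cytokines, the block changed no call of A17.2 against control among the 6 members.

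**Figure D2:**
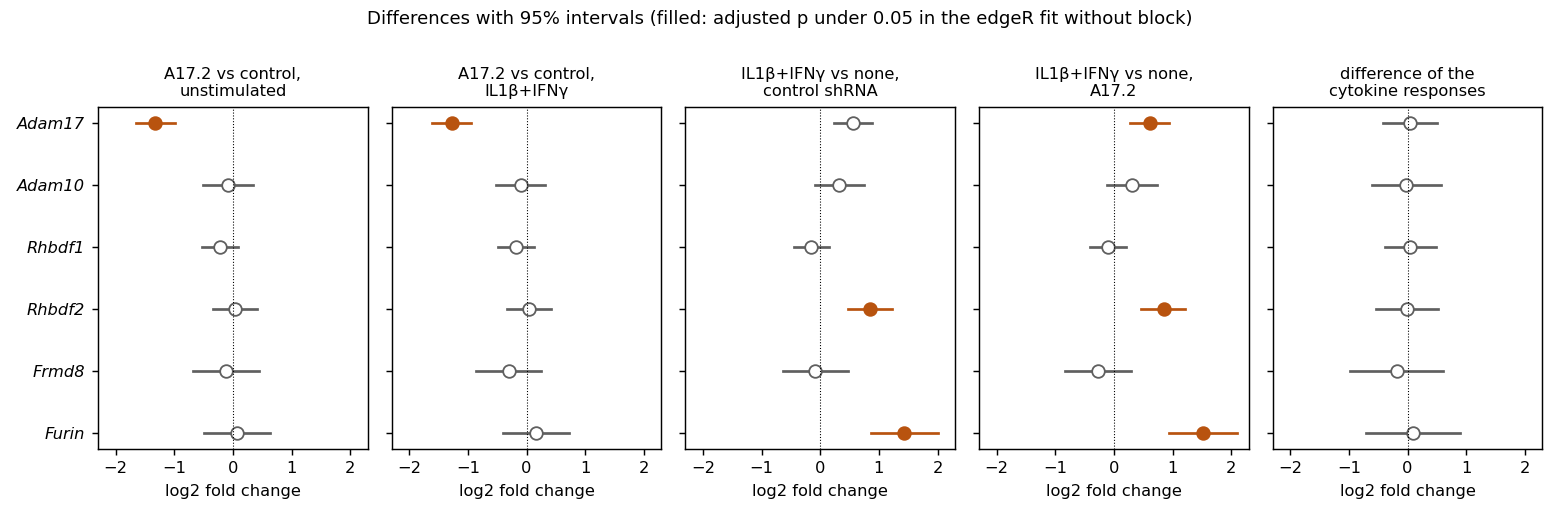
Log2 fold changes of the 6 genes in each of 4 comparisons and the difference between the 2 cytokine responses, on 1 common linear axis. Points are estimates from 1 edgeR fit over the 4 groups without a block, lines are 95% intervals and filled points have an adjusted p under 0.05. *Adam17* is the filled point in both comparisons of A17.2 with control (−1.32 and −1.28), and *Furin* and *Rhbdf2* are filled in both cytokine responses.

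*Furin* rose the most of the 6 genes, and it did so in both kinds of cell. In control cells it went from 53.0, 61.1 and 88.0 CPM to 137, 195 and 214 CPM, which is 2.70-fold (95% interval 1.81 to 4.03, log2 1.43, SE 0.263, adjusted p = 0.00924). In A17.2 cells it went from 54.6, 74.3 and 83.7 CPM to 151, 209 and 251 CPM, which is 2.87-fold (1.93 to 4.29, log2 1.52, SE 0.263, adjusted p = 0.0047, edgeR). Every stimulated library lay above every unstimulated one, and the fold within pairs of the same number was 2.43 to 3.19 in control and 2.76 to 3.00 in A17.2 cells. Without replicate 2 of the unstimulated control cells the call in control cells was lost (log2 1.40, adjusted p = 0.0599), and without replicate 1 of every group the log2 fold changes were 1.47 and 1.58 (adjusted p = 0.00137 and 0.000577, edgeR). With the replicate block over all 12 libraries the adjusted p was 1.65e-08 in control and 5.6e-09 in A17.2 cells (edgeR).

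*Rhbdf2* rose too, whereas its paralog *Rhbdf1* was not called in either kind of cell. *Rhbdf2* reached 1.80-fold in control cells (95% interval 1.39 to 2.35, log2 0.85, SE 0.173, adjusted p = 0.0176) and 1.80-fold in A17.2 cells (1.38 to 2.34, log2 0.85, SE 0.173, adjusted p = 0.0139, edgeR). No stimulated library, at 20.9 to 30.8 CPM, overlapped an unstimulated one, at 13.4 to 16.2 CPM. *Rhbdf1* in stimulated cells was at 0.902 (0.73 to 1.11) and 0.931 (0.753 to 1.15) of the unstimulated level, with adjusted p of 0.853 and 0.964 in edgeR. The call for *Rhbdf2* in control cells was lost without any 1 of the 3 unstimulated control libraries (adjusted p = 0.0587, 0.0589 and 0.0683) and without replicate 3 of the stimulated control cells (log2 0.72, adjusted p = 0.0863), and was kept without replicate 1 of every group (log2 0.92, adjusted p = 0.0309, edgeR). In A17.2 cells it was lost without unstimulated replicate 1 or 2 (adjusted p = 0.0539 and 0.0722), without stimulated replicate 1 or 3 (adjusted p = 0.0596 and 0.0575) and without replicate 1 of every group (log2 0.70, adjusted p = 0.0814, edgeR). These fits do not use the pairing. *Rhbdf2* was higher in 3 of 3 pairs in each kind of cell. With the replicate block over all 12 libraries both calls were kept (adjusted p = 0.000339 in control and 0.000264 in A17.2 cells, edgeR).

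*Adam17* was higher after stimulation in 3 of 3 pairs in both kinds of cell. In A17.2 cells it rose 1.52-fold (95% interval 1.21 to 1.91, log2 0.61, SE 0.149, adjusted p = 0.0422, edgeR). In control cells the value was 1.48-fold (1.18 to 1.85, log2 0.56, SE 0.149) and did not pass the test (adjusted p = 0.0729, edgeR), although the stimulated libraries at 95.5 to 129 CPM lay above the unstimulated ones at 68.4 to 76.4 CPM. With the replicate block both passed (adjusted p = 0.000551 in control and 0.000302 in A17.2 cells), and without replicate 1 of every group the log2 fold changes were 0.47 (adjusted p = 0.0838) and 0.56 (adjusted p = 0.0337, edgeR). The call in A17.2 cells was lost without 7 of the 12 libraries, each left out alone: all 3 unstimulated A17.2 libraries, stimulated A17.2 replicates 1 and 2, unstimulated control replicate 3 and stimulated control replicate 2 (log2 0.48 to 0.68, adjusted p = 0.0575 to 0.161). In stimulated A17.2 cells *Adam17* was still below the level of unstimulated control cells: 39.5 to 52.3 CPM against 68.4 to 76.4 CPM, without overlap.

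*Adam10* and *Frmd8* did not pass the test in either kind of cell without the block. *Adam10* was 1.26-fold (0.939 to 1.68, adjusted p = 0.609) in stimulated control and 1.24-fold (0.927 to 1.66, adjusted p = 0.671) in stimulated A17.2 cells, and higher in 3 of 3 pairs in each. With the replicate block it passed in both, at log2 0.35 (adjusted p = 0.0234) and 0.31 (adjusted p = 0.0401, edgeR). *Frmd8* was at 0.943 (0.641 to 1.39, adjusted p = 0.984) and 0.828 (0.563 to 1.22, adjusted p = 0.881, edgeR) of the unstimulated level. Over all tested genes 3.32% were called in control and 4.26% in A17.2 cells, of which 491 of 520 and 602 of 667 were higher, against 2 and 3 of the 6 members. With the block these shares were 19.3% and 17.6%, against 4 of 6 members in each.

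The response of the 6 genes could not be told from 1 kind of cell to the other. The difference of the 2 log2 responses, A17.2 minus control, was 0.04 for *Adam17* (95% interval −0.42 to 0.50), −0.02 for *Adam10* (−0.61 to 0.57), 0.05 for *Rhbdf1* (−0.39 to 0.48), −0.01 for *Rhbdf2* (−0.54 to 0.53), −0.19 for *Frmd8* (−0.97 to 0.60) and 0.09 for *Furin* (−0.71 to 0.89). All 6 had an adjusted p of 1. Over all 15649 genes edgeR called 0 (0%), with 209 at an unadjusted p under 0.05, while DESeq2 called 24 and the fit with the replicate block 65 (0.415%), none of them a member. As a fold, the 95% interval of the difference was 0.749 to 1.42 for *Adam17*, narrowest for *Rhbdf1* (0.765 to 1.39) and widest for *Furin* (0.611 to 1.85). The comparisons of A17.2 with control and the cytokine responses were drawn from the same 12 libraries, so they are not separate evidence.

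The count ratio of 2 genes within a library needs no scaling between libraries, although it also reflects the lengths of both genes. *Adam17* had 3.32, 2.65 and 2.29 counts for each *Adam10* count in unstimulated control libraries (replicates 1 to 3), and 1.39, 1.27 and 0.87 in unstimulated A17.2 libraries. With cytokines the ratio was 3.91, 2.98 and 2.69 in control and 1.90, 1.42 and 1.04 in A17.2 libraries. All 6 control values were above all 6 A17.2 values, and in each of the 4 groups replicate 1 was highest and replicate 3 lowest. *Rhbdf1* had 9.29, 7.95 and 7.36 counts for each *Rhbdf2* count in unstimulated control and 6.42, 7.81 and 6.30 in unstimulated A17.2 libraries. With cytokines the ratio was 4.34, 4.81 and 3.38 in control and 2.92, 4.66 and 3.37 in A17.2 libraries. Here the split was by cytokines: all 6 stimulated libraries, at 2.92 to 4.81, were below all 6 unstimulated ones, at 6.30 to 9.29.

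**Figure D3:**
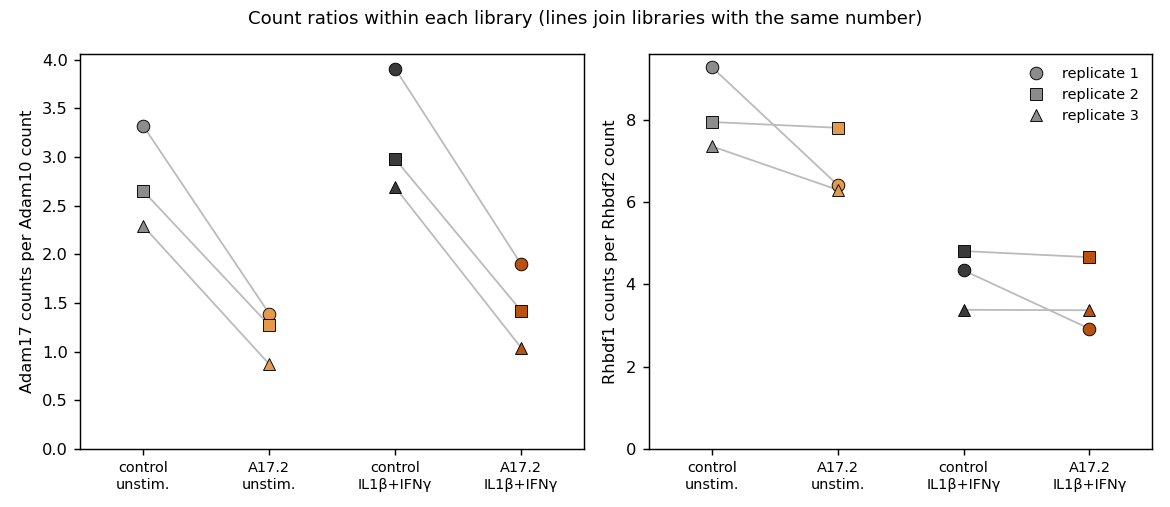
Count ratios within each library, *Adam17* to *Adam10* (left) and *Rhbdf1* to *Rhbdf2* (right), on linear axes that start at 0. Each symbol is a library and grey lines join control and A17.2 libraries of the same number. The *Adam17* to *Adam10* ratio is 2.29 to 3.91 in control and 0.87 to 1.90 in A17.2 libraries, and the *Rhbdf1* to *Rhbdf2* ratio is 2.92 to 4.81 with and 6.30 to 9.29 without cytokines.

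Per kilobase of summed exon length, *Frmd8* and *Rhbdf1* were the most abundant of the 6 transcripts in unstimulated control cells, at 22.8 ± 5.49 and 21.5 ± 3.07 CPM per kb (SD, n = 3), and their libraries overlapped. *Adam17* came next at 10.3 ± 0.635 CPM per kb, followed by *Furin* at 7.34 ± 1.99 and *Adam10* at 5.56 ± 1.10 CPM per kb, with overlap between *Adam17* and *Furin* and between *Furin* and *Adam10*. *Rhbdf2* was lowest at 2.69 ± 0.115 CPM per kb and overlapped none of the others. In unstimulated A17.2 cells *Adam17*, at 4.12 ± 0.219 CPM per kb, stood between *Adam10* at 5.26 ± 1.08 and *Rhbdf2* at 2.77 ± 0.275 CPM per kb, without overlap with either. In stimulated control cells *Furin* reached 19.8 ± 4.33 CPM per kb and overlapped *Frmd8* (21.5 ± 3.56) and *Rhbdf1* (19.4 ± 0.734), with *Adam17* at 15.2 ± 2.43, which overlapped *Furin* and *Frmd8*, *Adam10* at 6.98 ± 0.269 and *Rhbdf2* at 4.86 ± 0.732 CPM per kb. In stimulated A17.2 cells *Furin* was at 22.2 ± 5.48, *Frmd8* at 17.4 ± 4.97, *Rhbdf1* at 17.1 ± 0.726, *Adam10* at 6.51 ± 1.11, *Adam17* at 6.28 ± 0.931 and *Rhbdf2* at 4.98 ± 0.946 CPM per kb, and the libraries of the last 3 overlapped. The order depended on the length used: per kilobase of the longest coding transcript *Rhbdf1* was above *Frmd8* in unstimulated control cells (39.7 against 25.7 CPM per kb) and *Adam17* above *Adam10* in unstimulated A17.2 cells (6.6 against 5.62 CPM per kb).

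The spread between replicates differed between the members. The coefficient of variation within a group was 5.30 to 16.0% for *Adam17*, 3.77 to 14.2% for *Rhbdf1*, 3.86 to 20.5% for *Adam10* and 4.25 to 19.0% for *Rhbdf2*, against 16.5 to 28.6% for *Frmd8* and 21 to 27.2% for *Furin*. Counting error alone would give 1.34 to 5.18% over the 6 genes and 4 groups. *Furin* was lowest in replicate 1 and highest in replicate 3 of each group, and *Frmd8* was lowest in replicate 1 of each group. As deviations from the group means over the 12 libraries, *Frmd8* and *Furin* correlated at r = 0.867, *Adam10* and *Furin* at 0.847, and *Adam17* and *Frmd8* at −0.816. These values describe libraries that share replicate numbers, and carry no test.

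The genes whose levels followed *Adam17* most closely over the 12 libraries, among 11837 compared, were *Il2rg* (Pearson r = 0.983), *Naip6* (0.974), *Inhba* (0.961), *Nt5c3* (0.96) and *Glrp1* (0.959). *Il2rg*, the common γ chain of cytokine receptors, had a mean of 2.56 CPM in unstimulated control, 0.872 in unstimulated A17.2, 4.23 in stimulated control and 1.53 CPM in stimulated A17.2 cells. *Inhba*, the βA subunit of inhibins and activins, had 5.62, 2.10, 7.78 and 2.33 CPM in that order. These genes were chosen for their likeness to *Adam17*, which fixes that order. For *Furin* the closest were *Enc1* (0.991), *Naa25* (0.988) and *Plekhm1* (0.985). For *Rhbdf2* they were *Gja4* (0.972), *Azin2* (0.97) and *Ripk2* (0.956), the kinase of NOD signaling, which had 14.8 and 13.6 CPM in unstimulated and 62.7 and 62.8 CPM in stimulated control and A17.2 cells. For *Adam10* they were *Abca2* (0.966), *Ascc3* (0.957) and *Tdrd7* (0.95), for *Rhbdf1* *P3h4* (0.93), *Timm8a1* (0.914) and *WI1-2736D10.3* (0.905), and for *Frmd8* *Mapre1* (0.984), *Crat* (0.982) and *Pip4k2b* (0.981). The 12 libraries share groups and replicate numbers, so these values are a description and carry no p.

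*Furin* and *Rhbdf2* were called higher with cytokines in both kinds of cell, and *Adam17* in A17.2 cells. Of all tested genes 3.32% were called in the response of control and 4.26% in that of A17.2 cells. The rise of *Adam17* in control cells did not pass the test without the block (adjusted p = 0.0729, edgeR). IL1β is known to signal through NF-κB and AP-1, so the windows from 250 bases before to 50 after the annotated starts of *Adam17* and *Furin* are shown. The sequences are from RefSeq on GRCm38.p6, on the minus strand: *Adam17* at chr12:21373583-21373882, *Furin* at chr7:80405387-80405686 (upstream start) and chr7:80402763-80403062 (downstream start). Capitals mark 3 common promoter motifs, each searched on both strands. A GC box was any match to GGGCGG, and the box named CCAAT was any match to the letters of its name. The third motif, which binds the TATA-binding protein of the basal transcription machinery, was any match to TATAAA.
Adam17: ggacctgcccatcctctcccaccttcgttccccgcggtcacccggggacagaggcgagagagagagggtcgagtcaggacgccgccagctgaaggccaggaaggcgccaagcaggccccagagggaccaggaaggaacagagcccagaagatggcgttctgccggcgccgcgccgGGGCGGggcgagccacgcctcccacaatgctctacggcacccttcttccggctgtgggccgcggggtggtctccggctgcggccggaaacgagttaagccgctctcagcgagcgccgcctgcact
Furin, upstream start: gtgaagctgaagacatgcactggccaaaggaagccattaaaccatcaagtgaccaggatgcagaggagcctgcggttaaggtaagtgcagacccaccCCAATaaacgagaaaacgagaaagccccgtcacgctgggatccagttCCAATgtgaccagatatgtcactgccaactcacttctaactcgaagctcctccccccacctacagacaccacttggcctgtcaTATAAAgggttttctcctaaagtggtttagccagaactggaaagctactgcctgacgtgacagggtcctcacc
Furin, downstream start: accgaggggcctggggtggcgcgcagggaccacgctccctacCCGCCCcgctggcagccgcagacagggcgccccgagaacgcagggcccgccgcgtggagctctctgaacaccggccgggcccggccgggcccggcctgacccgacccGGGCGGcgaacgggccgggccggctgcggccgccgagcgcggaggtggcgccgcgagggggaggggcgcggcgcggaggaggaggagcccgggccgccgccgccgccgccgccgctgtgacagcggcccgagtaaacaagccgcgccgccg
The *Adam17* window held 1 GC box, 75 bases before the start, and neither a CCAAT nor a TATA box. The upstream *Furin* window held a TATA box 23 bases before its start and 2 CCAAT boxes, whereas the downstream one held 2 GC boxes. CpG dinucleotides numbered 30 in the *Adam17*, 7 in the upstream and 51 in the downstream *Furin* window. GC boxes were in 35.7%, CCAAT boxes in 37.4% and TATA boxes in 13.6% of all 32851 windows of this length. No match to AP-1 (TGANTCA) or the κB consensus was found in these 3 windows or in those of *Adam10* and *Frmd8*, and the motifs occurred in 7.81% and 8.46% of all windows. The table holds no window for *Rhbdf1* and *Rhbdf2*. A missing match says only that these letters are not in these 300 bases.

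Tetraspanins of the C8 subgroup escort ADAM10 out of the endoplasmic reticulum and steer its substrates. Of the 6 genes, 5 were tested. Without cytokines 1 was higher and 0 lower in A17.2 cells, and with cytokines 1 was higher and 2 lower, against 6.43% and 6.85% of all tested genes called. The median log2 fold change was 0.16 and 0.02 over the list against −0.01 and 0.02 over all tested genes. Among stimulated cells *Tspan14* was lower with A17.2, at 23.4, 26.8 and 26.1 CPM in control and 12.7, 14.6 and 16.2 CPM in A17.2 cells (log2 −0.81, SE 0.191, adjusted p = 0.0275, edgeR). *Tspan17* was lower there too, at 15.4, 15.2 and 20.4 CPM in control and 8.25, 8.50 and 13.1 CPM in A17.2 cells (log2 −0.77, SE 0.208, adjusted p = 0.0483, edgeR), a call that was lost without any 1 of 11 of the 12 libraries. That of *Tspan14* was lost without stimulated control replicate 2 or 3 or any stimulated A17.2 library (adjusted p up to 0.109). With the replicate block over all libraries both calls were kept (adjusted p = 0.000298 for *Tspan14* and 0.00024 for *Tspan17*, edgeR). Without cytokines *Tspan14* (log2 −0.665, SE 0.189) and *Tspan17* (log2 −0.365, SE 0.206) were also lower with A17.2. Those differences were called only with the block (adjusted p = 0.000982 and 0.0325, against 0.0628 and 0.394 without it, edgeR). *Tspan33* rose, but from 1 to 7 counts per control library to 16 to 42 counts per A17.2 library, at most 1.28 CPM, and fitted values from so few counts depend on the prior count (log2 1.98 without and 2.90 with cytokines, adjusted p = 0.0164 and 0.00464, edgeR). The call for *Tspan33* without cytokines was lost without any unstimulated control library or unstimulated A17.2 replicate 2 (adjusted p up to 0.061). With the replicate block 2 genes of this list were higher and 2 lower in A17.2 cells in each condition, against 33.4% of all tested genes without and 37% with cytokines. No gene of the list was called in either cytokine response without the block, where 3.32% of all tested genes were called in control and 4.26% in A17.2 cells.

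*Cd9*, a tetraspanin that binds ADAM17 and dampens its activity, was the gene called among 8 that traffic or activate ADAM17, of which all 8 were tested. It fell from 332, 280 and 210 CPM to 117, 119 and 157 CPM in unstimulated A17.2 cells (log2 −1.07, SE 0.184, adjusted p = 0.00658), and from 267, 242 and 233 to 143, 119 and 137 CPM with cytokines (log2 −0.90, SE 0.184, adjusted p = 0.0165, edgeR). The groups did not overlap in either condition. Leaving out 1 library kept the call in all 12 fits without cytokines and lost it in 3 with cytokines (adjusted p up to 0.0679), those without stimulated control replicate 2 or stimulated A17.2 replicate 2 or 3. Of all tested genes 6.43% were called without and 6.85% with cytokines. The list's median log2 fold changes were −0.09 and −0.09. With the replicate block 2 genes were higher and 2 lower without cytokines and 1 higher and 2 lower with cytokines, against 33.4% and 37% of all tested genes.

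The lists that bear on maturation and inhibition held no call. Among 4 convertases related to furin 2 were tested, among 5 inhibitors (TIMPs and RECK) 3 were tested, and among 10 rhomboid proteases and other relatives of the iRhoms 8 were tested, with 0 called in any of the 5 comparisons by edgeR without the block. Of all tested genes 0 to 6.85% were called in these comparisons. With the block 1 inhibitor was higher in A17.2 cells in each condition, and of the iRhom relatives 2 were higher and 1 lower without cytokines and 3 higher and 1 lower with cytokines, against 33.4% and 37% of all tested genes called with the block. In the cytokine response of A17.2 cells 1 iRhom relative was lower with the block, against 17.6% of all tested genes. Among the 5 other membrane ADAMs 3 were tested. *Adam8*, a sheddase best known from leukocytes, fell in unstimulated A17.2 cells from 54.3, 31.1 and 46.1 CPM to 8.12, 12.1 and 19.5 CPM (log2 −1.73, SE 0.33, adjusted p = 0.0111, edgeR) and rose there with cytokines to 34.6, 43.4 and 51.4 CPM (log2 1.70, SE 0.33, adjusted p = 0.00984, edgeR). In control cells *Adam8* went from 54.3, 31.1 and 46.1 to 106, 64 and 104 CPM (log2 1.06, SE 0.322, adjusted p = 0.136, and 0.00291 with the block, edgeR). Among stimulated cells *Adam8* was lower with A17.2 (log2 −1.08, SE 0.322), a call made only with the block (adjusted p = 0.00138, against 0.0719 without it, edgeR). *Adam9* rose in A17.2 cells from 188, 168 and 183 to 433, 350 and 341 CPM with cytokines (log2 1.06, SE 0.204, adjusted p = 0.00933, edgeR). In control cells it went from 204, 133 and 144 to 343, 224 and 254 CPM (log2 0.77, SE 0.203, adjusted p = 0.0735, and 6.86e-05 with the block, edgeR). The difference between the 2 responses was not called for either gene (log2 0.65 for *Adam8* and 0.29 for *Adam9*, adjusted p = 1 for both without and 0.496 and 0.561 with the block, edgeR). The 3 calls without the block were each lost without unstimulated A17.2 replicate 2 (adjusted p = 0.0507 for *Adam8* between the kinds of cell, and 0.0639 for *Adam8* and 0.0582 for *Adam9* in the cytokine response).

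Of 13 ADAM17 substrates 9 were tested. Comparing A17.2 with control, 0 were called without cytokines and 1 was lower with cytokines, against 6.43% and 6.85% of all tested genes. With the replicate block 1 was higher and 5 lower without and 2 higher and 2 lower with cytokines, against 33.4% and 37% of all tested genes called with the block. In the cytokine response 3 rose in control and 4 in A17.2 cells without the block, against 3.32% and 4.26% of all tested genes, with list medians of 0.20 and 0.67 on the log2 scale against −0.04 and −0.05 over all tested genes. With the block 3 were higher and 0 lower in control and 5 higher and 1 lower in A17.2 cells, against 19.3% and 17.6%, the lower 1 being *Areg*, an EGF receptor ligand (log2 −1.04, adjusted p = 0.0453, edgeR). *Cx3cl1*, a membrane-bound chemokine, rose from 2.75, 1.84 and 1.87 to 16.0, 16.3 and 24.2 CPM in control cells (log2 3.11, SE 0.4, adjusted p = 0.000785) and from 0.375, 0.652 and 1.41 to 6.97, 5.90 and 8.99 CPM in A17.2 cells (log2 3.17, SE 0.417, adjusted p = 0.000657, edgeR). In stimulated cells it was lower with A17.2 (log2 −1.37, SE 0.371, adjusted p = 0.0495, edgeR), a call lost without any 1 of 9 libraries (adjusted p up to 0.185). The replicate block over all libraries kept that call (adjusted p = 0.000188, edgeR). Without cytokines its difference (log2 −1.42, SE 0.411) was called only with the block (adjusted p = 0.00168, against 0.0663 without it, edgeR). *Vcam1*, an adhesion molecule, rose by log2 1.73 in control and 1.95 in A17.2 cells (SE 0.224 and 0.226, adjusted p = 0.000851 and 0.000255, edgeR), to 688 to 967 CPM and 575 to 807 CPM. *Tnfrsf1a*, the main TNF receptor, rose by log2 1.17 and 1.43 (SE 0.178 and 0.179, adjusted p = 0.00271 and 0.000433, edgeR). *Tnfrsf1b*, the other TNF receptor, rose in A17.2 cells (log2 0.67, SE 0.167, adjusted p = 0.0473, edgeR), a call lost without any 1 of 9 libraries (adjusted p up to 0.217). In control cells its log2 fold change was 0.20 (adjusted p = 0.81, edgeR). The difference of its 2 responses, 0.47 (95% interval −0.05 to 0.98), was not called with or without the block.

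Of 12 ADAM10 substrates 9 were tested. *Notch1* rose with cytokines from 10.1, 14 and 21.3 to 30.8, 57.2 and 53.6 CPM in control cells (log2 1.65, SE 0.377, adjusted p = 0.0359) and from 12, 14.7 and 24.6 to 47.7, 87.5 and 93.4 CPM in A17.2 cells (log2 2.15, SE 0.381, adjusted p = 0.00545, edgeR). *App*, the amyloid precursor protein, was higher in stimulated A17.2 cells, at 876, 602 and 549 CPM against 462, 288 and 313 CPM in stimulated control cells (log2 0.93, SE 0.248, adjusted p = 0.0465, edgeR). Without cytokines it was at 469, 453 and 465 CPM in A17.2 and 359, 223 and 237 CPM in control cells (log2 0.76, SE 0.247). That difference was called only with the block (adjusted p = 0.000183, against 0.103 without it, edgeR). The call of *Notch1* in control cells was lost without any 1 of 6 libraries (adjusted p up to 0.158) and that of *App* in stimulated cells without any 1 of 9 (adjusted p up to 0.185). The replicate block over all libraries kept both calls (adjusted p = 4.16e-07 for *Notch1* and 5.29e-05 for *App*, edgeR). The list's median difference of A17.2 from control was 0.61 without and 0.69 with cytokines on the log2 scale, with 0 and 1 genes called, against 6.43% and 6.85% of all tested genes. With the replicate block 4 were higher and 1 lower without and 5 higher and 1 lower with cytokines, against 33.4% and 37% of all tested genes. In the cytokine responses of control and A17.2 cells 4 rose and 2 fell in each with the block, against 19.3% and 17.6%.

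**Figure D4:**
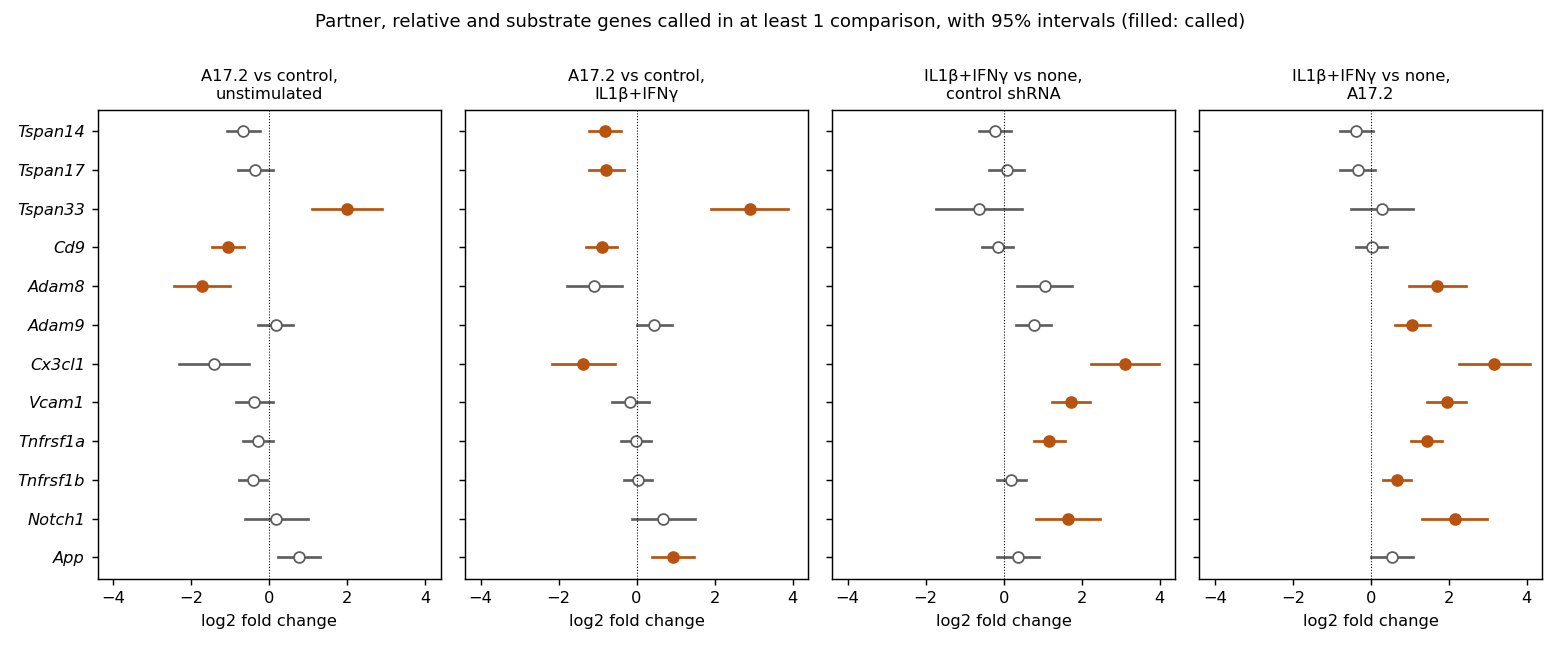
Log2 fold changes of the 12 listed partner, relative and substrate genes that were called in at least 1 of 4 comparisons, on a common linear axis. Points are estimates from the edgeR fit without a block, lines are 95% intervals and filled points have an adjusted p under 0.05. *Cd9* is filled below 0 in both comparisons of A17.2 with control (−1.07 and −0.90) and *Cx3cl1* lies farthest above 0 in both cytokine responses (3.11 and 3.17).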

How the data were processed

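Whole-number read counts per gene symbol, without normalization, were deposited by the authors for 12 libraries. The submitters' notes name mm10. No source used here gives the aligner, counter, annotation or strand setting. The authors' 2 further tables, holding fold changes and p-values of A17.2 against control, were not used. All 12 columns were matched to samples by title. Of 43271 genes, 10997 were without reads, and edgeR's default filter kept 15649.

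The counts were tested with edgeR 4.0.16 (with limma 3.58.1, R 4.3.3): the quasi-likelihood test in 1 fit over 4 groups, TMM normalization, Benjamini-Hochberg adjustment over all tested genes, threshold 0.05. Standard errors are the absolute log2 fold change over the square root of F. The fit was run on simulated counts with less spread than these libraries and no effect of the replicate number. That run does not show how the fit behaves on libraries paired by number. Depth was 16592831 to 35861103 counts per library. Levels per kb used GENCODE M21 exons on GRCm38.

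Replicate numbers came from the labels. Deviations from group means correlated at 0.309 to 0.85 in the 18 pairs that share a number and at −0.751 to 0.455 in the 36 that do not, and 12 of 12 libraries correlated best with their own number. By a threshold of 0.1 the numbers paired the libraries. The block lowered the common dispersion from 0.0795 to 0.0110. The main test was kept without it, so its p-values and those of the fits with a library left out do not use this pairing. Every call of a named gene made without the block was also made with it over all 12 libraries.

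The A17.2 target was located by matching its published letters to GENCODE transcripts, all 21 bases matching, and the printed letters were read from GENCODE. The closest window of 1 member is not reported here.

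All 6 members were named. From the lists, genes called in at least 1 comparison were named, beside *Eef2*, *Polr2b* and *Iah1* and, predicted genes left out, the 5 (*Adam17*) or 3 most correlated genes. Cell type markers without a call were named to describe the cells. *Areg*, *Col1a2* and the differences of *Col3a1*, *Dcn* and *Pdgfra* were added after their values were seen. The members and lists were chosen with earlier results of these data known. Alternatives were DESeq2 1.42.0, its size factors in edgeR, no filter, at least 50 counts in 3 libraries, only the groups compared, the replicate block, CPM by total counts, another gene length and each library left out. Added once the data had been seen were fits without replicate 1 of every group, library totals without TMM, and DESeq2 with the block.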

Additional observations from a re-analysis of the deposited data

How the results depend on the processing

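The calls of lower *Adam17* in A17.2 cells were kept under every alternative run. Genes called without and with cytokines (A17.2 against control) and in the cytokine response of control and A17.2 cells numbered 1674, 1881, 811 and 1005 with DESeq2, 5225, 5791, 3021 and 2751 with the replicate block, and 5059, 5529, 3056 and 2742 with both, against 1006, 1072, 520 and 667. For A17.2 against control they were 358 and 407 in fits of only the groups compared and 1533 and 1694 without replicate 1 of every group. For the difference of the responses 24 were called by DESeq2, 28 without a filter, 65 with the block and 130 with DESeq2 and the block, against 0. With each library left out, the counts were 445 to 1092, 304 to 1062, 334 to 551 and 0 to 9 for the difference; the lowest 3 came without replicate 2 of unstimulated control, stimulated control and unstimulated control cells. Causes were not tested.

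For the rise of *Adam17* in control cells, log2 was 0.571 with DESeq2, 0.554 with the replicate block and 0.561 with both, now past the threshold, and 0.464 to 0.651 with each library left out. In A17.2 cells it was 0.61 without a filter, 0.65 with only the groups compared and 0.515 without TMM, no longer past it, and 0.483 to 0.691 with each library left out. *Adam10* passed in control (0.347 with the block, 0.354 with DESeq2 and the block) and A17.2 cells (0.313 and 0.333), and *Frmd8* in A17.2 against control with cytokines (−0.331 in both). *Rhbdf2* in A17.2 cells was not called with only the groups compared (0.889) or without replicate 1 of every group (0.70). It ranged from 0.722 to 0.931 in control and 0.718 to 0.984 in A17.2 cells with each library left out, and *Furin* in control cells from 1.3 to 1.67. The block changed no other call of a member.

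Some signs turned among values that were never called. Without replicate 1 of every group the difference of the responses was 0.0908 for *Adam10* and −0.11 for *Rhbdf1*, and *Rhbdf2* in A17.2 against control with cytokines was −0.139. The difference for *Rhbdf2* was 0.00792 with DESeq2 size factors, 0.00558 with DESeq2, 0.0186 with at least 50 counts and 0.0119 with DESeq2 and the block. With each library left out, A17.2 against control without cytokines ranged from −0.264 to 0.0838 for *Adam10*, −0.0421 to 0.102 for *Rhbdf2*, −0.298 to 0.0239 for *Frmd8* and −0.0679 to 0.311 for *Furin*, and with cytokines from −0.0933 to 0.171 for *Rhbdf2* and −0.0204 to 0.337 for *Furin*. The response of *Frmd8* in control cells ranged from −0.255 to 0.0782. The difference of the responses ranged from −0.0816 to 0.159 for *Adam17*, −0.188 to 0.162 for *Adam10*, −0.0593 to 0.144 for *Rhbdf1*, −0.134 to 0.132 for *Rhbdf2*, −0.388 to 0.0187 for *Frmd8* and −0.153 to 0.264 for *Furin*.

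Library totals without TMM moved the median of all genes to −0.12 and −0.14 on the log2 scale in the 2 cytokine responses. Of 24 levels per kb, 17 moved by more than 1 SD with the longest coding transcript as length.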
